A study of Mus musculus with 6 samples.

Results

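The data describe 8 transcription factor genes that mark regions of the early brain, *Six3*, *Emx2*, *Lhx2*, *Otx2*, *En1*, *En2*, *Gbx2* and *Egr2*, ordered from forebrain to hindbrain. They were found by symbol in the authors' table of 24207 loci, and each of the 8 had 1 entry. RNA was taken from whole male mouse embryos at E9.5, of which 3 were *Smchd1*+/+ (wildtype) and 3 *Smchd1*MommeD1/MommeD1 (mutant). The *MommeD1* allele carries a nonsense mutation in *Smchd1*, which encodes a chromatin protein required for X inactivation, and the embryos came from crosses of heterozygous parents. The sample labels name C57Bl6/J and FVB/n as the strains of these embryos, whereas the study's text gives a backcross to a 129 substrain. The values are FPKM, the fragments mapped to a gene scaled by transcript length and by sequencing depth, so that levels of different genes can be compared. The table holds 1 value per genotype, pooled over its 3 embryos, so the differences below are given from these pooled values without a spread between embryos, an error or a test. The authors' own test columns in the same table were not used. Whole embryos also mean that fewer cells of a type and less RNA per cell cannot be told apart.

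At this stage the neural tube is divided along its length by transcription factors with sharp borders. *Six3*, *Emx2* and *Lhx2* act in the forebrain, *Otx2* in the forebrain and midbrain, *En1* and *En2* across the midbrain-hindbrain boundary, *Gbx2* in the anterior hindbrain and *Egr2* (also called *Krox20*) in the third and the fifth rhombomere. *Otx2* and *Gbx2* repress each other, and the border between their domains sets the position of the isthmic organizer, a signalling centre that secretes FGF8 and WNT1.

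*Smchd1*, the mutated gene, was at 2.12 FPKM in the mutant compared with 34.0 FPKM in the wildtype, 16.1-fold lower in the mutant. None of the 8 brain genes is on the X chromosome. They lie on 7 chromosomes, and *Six3* is 14.1 Mb from *Smchd1* on chromosome 17.

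Most of the 8 genes were at similar levels in the genotypes. Of the 8, 4 were higher and 4 lower in mutant embryos, and 6 differed by less than 1.5-fold. *Lhx2* was the gene past 1.5-fold on the higher side and *Egr2* the one on the lower side, and only *Egr2* of the 8 also passed 2-fold. Among the 17322 loci with a symbol and a value above 0 in both genotypes, 5.61% were past 1.5-fold higher and 2.23% past 1.5-fold lower in mutant embryos, and 1.63% were past 2-fold higher and 0.537% past 2-fold lower. Where values are given in pairs, the mutant comes first. Log2 ratios are mutant over wildtype with 0.1 FPKM added to each value, which understates differences at low levels. *Egr2* was below a mean of 1 FPKM. Of the 7 genes above that level 1 was past 1.5-fold higher and 0 lower, against 3.2% and 1.08% of the 11980 such loci. With 8 genes, 1 in each direction is too few to set against these shares. The median log2 ratio of the 7 genes was 0.13, and that of the 11980 loci was -0.01.

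**Figure D1:**
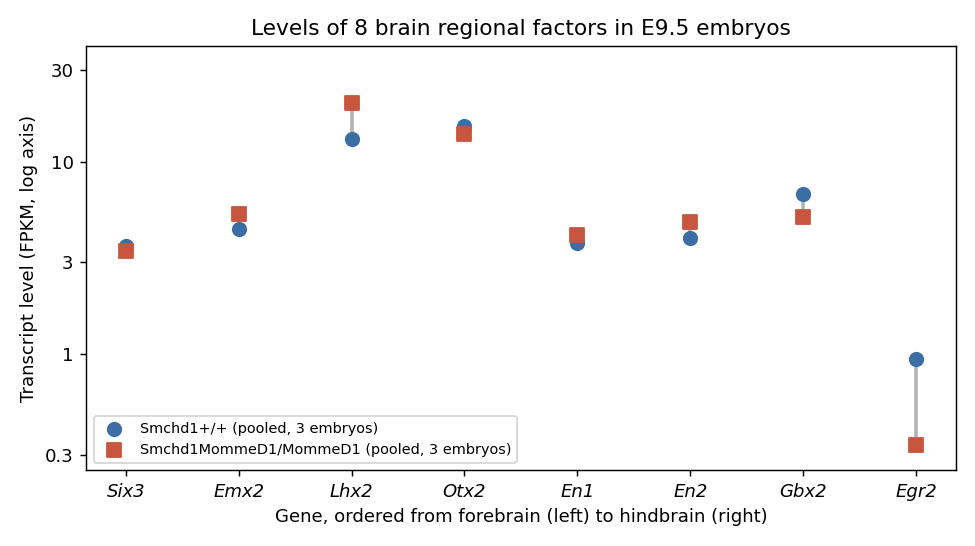
Transcript level (FPKM, log axis) of each gene in wildtype (circles) and mutant embryos (squares), 1 pooled value per genotype with no error bars, ordered from forebrain to hindbrain. *Lhx2* and *Egr2* are the pairs that stand furthest apart, at 20.3 and 13.1 FPKM and at 0.336 and 0.945 FPKM.

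The genes also differed in level. In wildtype embryos *Otx2* was the most abundant at 15.4 FPKM, followed by *Lhx2*, *Gbx2*, *Emx2*, *En2*, *En1*, *Six3* and *Egr2*. In mutant embryos *Lhx2* stood first at 20.3 FPKM and *Otx2* second, and *Emx2* stood above *Gbx2*. The order of the other 4 genes was the same in both genotypes. Between *En2*, *En1* and *Six3* the levels lay within 3.42 to 4.87 FPKM in either genotype, and whether such neighbours differ beyond the spread of embryos cannot be told from pooled values.

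Among the forebrain genes, *Lhx2* was higher in mutant embryos, while *Six3* and *Emx2* differed less. *Lhx2* (chr2:38339728-38369728 in mm10, as are all positions here), a LIM homeodomain factor needed for eye formation and for cortical identity, was at 20.3 FPKM in mutants, with 13.1 FPKM in wildtypes, which is 1.55-fold higher (log2 ratio 0.63). *Emx2* (chr19:59458690-59465357), a homeodomain factor of the dorsal forebrain, was at 5.37 FPKM in the mutant against 4.47 FPKM in the wildtype, a log2 ratio of 0.26. *Six3* (chr17:85601932-85628255), which protects anterior forebrain fate by repressing Wnt signalling, was at 3.42 FPKM in the mutant compared with 3.66 FPKM in the wildtype, a log2 ratio of -0.09. The level of *Lhx2* relative to *Six3* was 5.92 in mutant and 3.58 in wildtype embryos, so that the forebrain genes did not differ by a common factor. *Six3* shares its locus with the antisense transcript *Six3os1*, which was at 2.78 FPKM in mutants, with 2.82 FPKM in wildtypes. The libraries were not directional, so reads of the gene and of its antisense transcript cannot be told apart where they overlap. *Emx2os*, antisense to *Emx2*, was listed at 0.200 and 0.0994 FPKM, far below *Emx2* itself.

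*Otx2* and the engrailed genes were close to their wildtype levels. *Otx2* (chr14:48656962-48667601), a homeodomain factor without which the forebrain and midbrain do not form, was at 14.0 FPKM in the mutant against 15.4 FPKM in the wildtype, a log2 ratio of -0.14. *En1* (chr1:120602401-120607991), needed for the midbrain and cerebellum, was at 4.16 FPKM in the mutant compared with 3.79 FPKM in the wildtype, a log2 ratio of 0.13. *En2* (chr5:28165696-28172288), its paralog with a role in cerebellar patterning, was at 4.87 FPKM in mutants, with 4.01 FPKM in wildtypes, a log2 ratio of 0.27. Both engrailed genes were thus slightly higher in mutant embryos, and the level of *En1* relative to *En2* was 0.855 in mutant and 0.944 in wildtype embryos. *Otx2os1*, the noncoding transcript beside *Otx2*, was listed at 0.0900 FPKM in the mutant against 0.135 FPKM in the wildtype.

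Both hindbrain genes were lower in mutant embryos. *Gbx2* (chr1:89927829-89932557), the homeodomain factor on the hindbrain side of the boundary, was at 5.17 FPKM in the mutant compared with 6.84 FPKM in the wildtype, which is 1.32-fold lower (log2 ratio -0.40). GENCODE M21 has *D130058E05Rik* on the other strand over part of *Gbx2*, without an entry of its own in the table, so its reads may be counted with *Gbx2*. Genes on the other strand without an entry also lie within the spans of *Lhx2*, *Six3* and *En2*. The level of *Otx2* relative to *Gbx2* was 2.71 in mutant and 2.26 in wildtype embryos. *Egr2* (chr10:67535712-67542188), the zinc finger factor that specifies the third and the fifth rhombomere and later drives myelination in Schwann cells, was at 0.336 FPKM in mutants, with 0.945 FPKM in wildtypes. That is 2.81-fold lower in the mutant, and the log2 ratio was -1.26 with 0.1 FPKM added and -1.49 with nothing added. *Egr2* had the lowest level of the 8 genes in both genotypes, so the same number of reads moves its ratio most. The depth of the libraries is not given, so a rough scale was taken from low FPKM values of genes with a single transcript. The median of FPKM times length in kb between 0.012 and 0.021 was taken as 1 step, so the scale depends on these fixed limits. If 1 step is 1 read and the longest coding transcript is the one measured, *Egr2* rested on about 59.1 reads in mutant and 168 reads in wildtype embryos, summed over 3 embryos. By the same reckoning the other 7 genes rested on 595 to 3414 reads per genotype. This scale was worked out after the values were seen, and it says nothing of the spread between embryos.

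**Figure D2:**
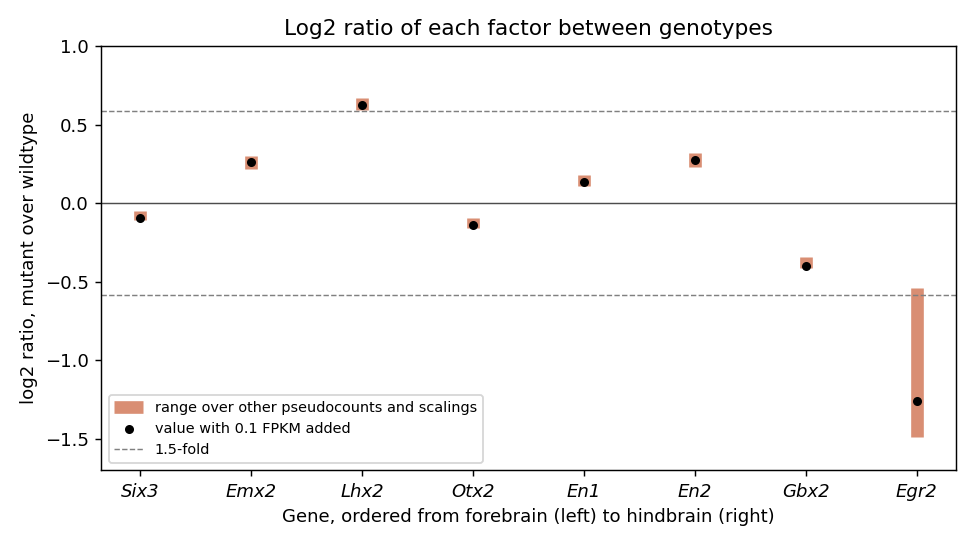
Log2 ratio of each gene, mutant over wildtype, with 0.1 FPKM added (black points), and its range over other pseudocounts and other scalings between the genotypes (bars, which are not errors between embryos), with 1.5-fold as dashed lines. The bar of *Lhx2* stays above 1.5-fold, from 0.59 to 0.67, and that of *Egr2* reaches from -1.49 to -0.54, whereas the bars of the other 6 genes stay within 1.5-fold and on their side of 0.

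*Lhx2* and *Egr2* stood at the upper and the lower end of the 8 ratios, so their start regions are shown. RefSeq promoter windows, 250 bases before to 50 after a start site on GRCm38.p6, the assembly of the authors' mm10 coordinates, were found for 7 of the 8 genes. CG dinucleotides, the sites of DNA methylation in mammals, were counted in each window. The search was for the letters CG, which read the same on both strands. The median window of all 32851 in the table had 7, and 6 of the 7 genes had more than that. The window of *Lhx2* had 34, more than 92.3% of all windows, and that of *Egr2* had 32, more than 90.5%. Both start regions were thus rich in CG, and the transcripts of the genes differed in opposite directions. *Otx2* had 6, and its window nearest the start of the locus was the one below the median. The bases before the start site that lie outside GENCODE M21 exons and before the RefSeq start of *Lhx2* are printed 5′ to 3′ on the plus strand, the strand of both genes, for *Lhx2* (chr2:38339031-38339270, 240 bases with 24 CG) and for *Egr2* (chr10:67535249-67535474, 226 bases with 21 CG), with each CG in capitals.
Lhx2: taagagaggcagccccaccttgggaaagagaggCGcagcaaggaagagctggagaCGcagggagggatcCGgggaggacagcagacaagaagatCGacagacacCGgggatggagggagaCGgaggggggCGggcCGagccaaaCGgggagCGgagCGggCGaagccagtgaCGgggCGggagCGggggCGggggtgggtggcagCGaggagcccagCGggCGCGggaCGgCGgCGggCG
Egr2: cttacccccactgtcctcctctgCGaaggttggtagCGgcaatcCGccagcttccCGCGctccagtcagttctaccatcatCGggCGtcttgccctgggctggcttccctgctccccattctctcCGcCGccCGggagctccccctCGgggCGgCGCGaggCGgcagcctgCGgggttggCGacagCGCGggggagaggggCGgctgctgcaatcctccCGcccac

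Set against all named loci, *Lhx2*, *Gbx2* and *Egr2* lay towards the ends of the distribution of ratios. Of the 11980 loci averaging 1 FPKM or more, 97.2% had a smaller log2 ratio than *Lhx2*, and 2.75% had a smaller one than *Gbx2*. *Egr2* was set against the 500 loci of nearest mean FPKM, between 0.535 and 0.767, of which 1% had a smaller ratio. In that range ratios scatter widely, and 17.2% of the 500 loci were past 1.5-fold higher and 5.4% past 1.5-fold lower. Among the 500 loci nearest in mean FPKM to *Lhx2*, 99% had a smaller ratio, and 1% were past 1.5-fold higher. For *Gbx2* 4.2% of its 500 nearest loci had a smaller ratio. *Otx2* and *Six3* stood above 17.8% and 29% of their nearest loci, and *En1*, *Emx2* and *En2* above 71.6%, 83.4% and 85.8%. These positions are descriptions and not tests.

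**Figure D3:**
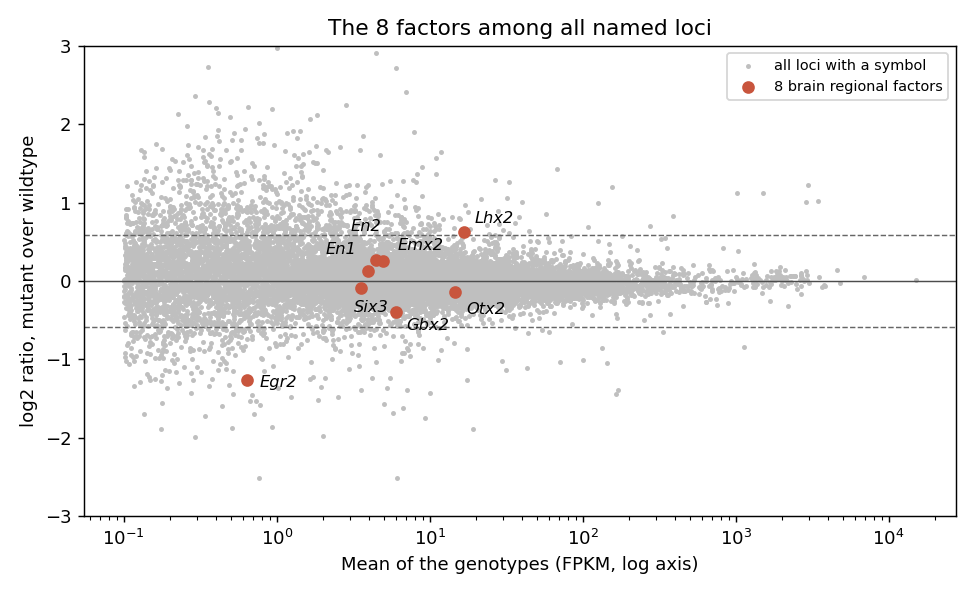
Log2 ratio (mutant over wildtype, 0.1 FPKM added) against mean FPKM (log axis) for 15073 named loci averaging 0.1 FPKM or more (grey, with 2 beyond the axis) and the 8 brain genes (red), with 1.5-fold as dashed lines. *Lhx2* lies at the upper edge of loci of its level, *Egr2* lies low in a range where loci scatter widely, and the other 6 genes lie between the dashed lines.

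Other genes of each brain region differed by less than 1.5-fold in most cases. Of 19 forebrain genes 14 reached a mean of 1 FPKM or more, of which 9 were higher and 5 lower in mutant embryos and 0 past 1.5-fold (median log2 ratio 0.18). Among the larger ratios were those of *Dlx1* (0.53) and *Fezf2* (0.52), factors of interneuron and cortical neuron development that were below 2 FPKM. *Six6*, an eye and hypothalamus gene, was at 1.12 FPKM in the mutant against 1.42 FPKM in the wildtype. *Sp8*, which had the highest mean of the genotypes in the list, was at 5.70 and 6.86 FPKM, a log2 ratio of -0.26.

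All 11 midbrain and isthmus genes were counted, and 7 were lower and 4 higher (median -0.16). *Lmx1b*, a LIM homeodomain factor that maintains the isthmus and also acts in the limb, was past 1.5-fold at 6.38 FPKM in the mutant compared with 3.97 FPKM in the wildtype, a log2 ratio of 0.67. *Pax8* (log2 ratio -0.57) and *Pax5* (-0.30), paired box factors at the boundary, were lower in the mutant but within 1.5-fold. *Fgf8*, the organizer's signal, was at 5.57 FPKM in mutants, with 6.65 FPKM in wildtypes. *Cnpy1*, an FGF signalling regulator, had a log2 ratio of 0.36. Counting only genes averaging 5 FPKM or more turned the sign of the list's median, to 0.21.

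In the hindbrain list more entries were lower than higher in mutant embryos. Of its 14 counted entries 9 were lower and 5 higher (median -0.13), and 3 of the 9 were past 1.5-fold, *Fgf3* and *Hoxb1* among them. *Fgf3*, a rhombomere signal for the inner ear, was at 1.41 FPKM in the mutant against 2.36 FPKM in the wildtype (log2 ratio -0.70). *Hoxb1*, the factor of the fourth rhombomere, was at 6.61 and 10.2 FPKM (-0.62), and *Cyp26c1*, a retinoic acid degrading enzyme, had a log2 ratio of -0.44. *Hoxb2*, the most abundant, was at 22.1 and 24.1 FPKM (-0.13). Among 13 entries of trunk Hox genes, which mark the spinal cord and other trunk tissue, 8 were higher and 5 lower, 0 past 1.5-fold (median 0.06). *Hoxb5* was listed at 2 entries of 1 locus with log2 ratios of -0.53 and 0.41. *Hoxc5* had a log2 ratio of 0.41, *Hoxc8* of -0.30 and *Hoxb9*, the most abundant, of -0.17.

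**Figure D4:**
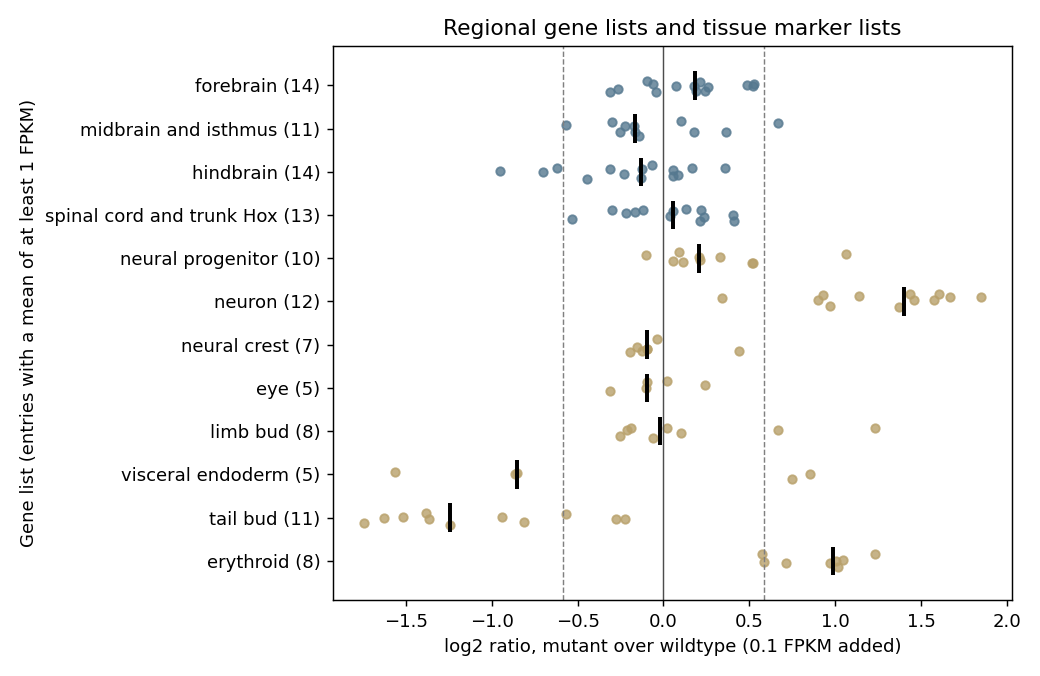
Log2 ratio (mutant over wildtype, 0.1 FPKM added) of every entry averaging 1 FPKM or more in the 4 regional lists (blue) and in 8 tissue marker lists (sand), with the number of entries in brackets, the list median as a black line and 1.5-fold as dashed lines. The regional medians lie between -0.16 and 0.18, the neuron median at 1.40 and the tail bud median at -1.24.

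The closest relatives of the 8 genes did not follow their partners in every case. *Lhx9*, the LIM homeodomain paralog of *Lhx2*, was at 5.55 FPKM in the mutant compared with 2.31 FPKM in the wildtype, 2.40-fold higher. *Otx1* (5.88 and 4.89 FPKM, log2 ratio 0.26), *Gbx1* (1.17 and 0.914 FPKM, 0.32) and *Emx1* (1.38 and 1.20 FPKM, 0.19) were higher in the mutant. *Otx2* and *Gbx2* were lower, opposite to *Otx1* and *Gbx1*. *Egr1*, an immediate early gene, was at 1.62 FPKM in mutants, with 1.22 FPKM in wildtypes (log2 ratio 0.38), also opposite to *Egr2*. *Egr3* was listed at 0.0953 and 0.0428 FPKM and *Egr4* at 0.00796 and 0.0111 FPKM, levels too low to compare.

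Medians of the neuron, tail bud, erythroid and visceral endoderm lists lay further from 0 than those of the regional lists. The neural progenitor median (0.21) was only slightly beyond the largest regional one (0.18, forebrain). Those of the neural crest, eye and limb bud lists lay within the range of the regional medians. All 12 neuron genes were higher in mutant embryos, 11 of them past 1.5-fold (median 1.40), and their summed level was 246 FPKM in the mutant and 112 FPKM in the wildtype. For 10 neural progenitor genes, of which 9 were higher and 1 past 1.5-fold, the median was 0.21 and the sums were 326 and 253 FPKM. All 11 tail bud genes were lower, 8 past 1.5-fold (median -1.24, sums 31.7 and 70.4 FPKM), and all 8 erythroid genes were higher, 7 past 1.5-fold (median 0.99, sums 12696 and 6011 FPKM). Of tissues outside the brain that also express some of the 8 genes, the neural crest list, where *Egr2* is found too, had a median of -0.10 over 7 of 8 entries (sums 51.7 and 54.0 FPKM). The eye list, a site of *Lhx2*, *Six3* and *Otx2*, had a median of -0.10 over 5 of 8 entries (sums 24.1 and 25.0 FPKM). The limb bud list, a site of *Lhx2* and *En1*, had 4 of 8 entries higher and 4 lower, 2 past 1.5-fold higher, these being *Lhx9* and *Lmx1b* (median -0.02, sums 49.2 and 45.8 FPKM). The visceral endoderm list, early a site of *Otx2*, had a median of -0.85 over 5 of 9 entries, of which 2 were higher and 3 lower, all past 1.5-fold (sums 30.4 and 36.5 FPKM). Counting only visceral endoderm genes averaging 5 FPKM or more moved that median to -0.00035. No entry of these lists was at 0 in either genotype. The part of these tissues in the levels of *Lhx2*, *Gbx2* and *Egr2* was not tested.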

How the data were processed

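Whole male embryos at E9.5 were assigned to *Smchd1*+/+ (3 embryos) or *Smchd1*MommeD1/MommeD1 (3 embryos) by the genotype field of their labels. Per the submitters' processing notes, reads were aligned to mm10 with TopHat2 2.0.6 and Bowtie2 2.0.2, and Cufflinks and Cuffdiff 2.0.2 were used. The annotation release is not given in the sources used here. The FPKM values deposited by the authors are 1 per genotype and locus, pooled over embryos. The authors' fold changes, test statistics, p-values and q-values in the same table were not used. Which value belongs to which genotype was taken from the headings of the study's own copy of the table.

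Log2 ratios were computed with a pseudocount of 0.1 FPKM. A fold of 1.5 was used as a descriptive limit, and lists were summarised over entries with a mean of at least 1 FPKM. Of the 24207 loci, 1110 had no symbol and were left out. From each list the 4 genes with the largest ratio and the most abundant one were named, and all paralogs; some genes of the lists, though counted, are not reported here by name. All symbols of the 13 lists had an entry. The 8 genes, the lists and the limits were chosen with earlier results of these data known. For read steps, 92 and 73 loci with 1 GENCODE M21 transcript of over 1500 bases and a value between 0.012 and 0.021 FPKM kb were used. Their medians were 0.0169 FPKM kb per read in mutant and 0.0167 in wildtype embryos. The computation of log2 ratios was tested on simulated data with known changes, whereas the read steps were not tested in this way. Other pseudocounts, scalings, folds and filters were tried. Python 3.11.15, numpy 2.4.6, pandas 2.3.3 and matplotlib 3.10.9 were used.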

Additional observations from a re-analysis of the deposited data

How the results depend on the processing

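The log2 ratios of the 8 genes kept their sign under all 8 other pseudocounts and scalings, and in 63 of 64 cases their side of 1.5-fold. The exception was *Egr2* with 1 FPKM added (-0.54), where 0 genes were past 1.5-fold lower; the larger pseudocount exceeds the level of *Egr2* in both genotypes. A mean of at least 1 FPKM (a filter chosen for this count after seeing the data) or of at least 5 FPKM also left 0 genes past 1.5-fold lower, since *Egr2* is below both, and a fold of 2 left 0 past it higher. Of 44 alternatives for regional medians 1 changed sign, that of the midbrain and isthmus list at a mean of at least 5 FPKM (0.21). Of 99 alternatives for the other medians 2 changed sign and 8 moved by more than 0.1. The eye list without genes of other lists (0.24) and the limb bud list rescaled to the same total FPKM (0.023) changed sign. The visceral endoderm median moved to -0.00035 at a mean of at least 5 FPKM and to -1.07 at 0.1 FPKM. With 0.5 and 1 FPKM added it was -0.74 and -0.63. With 1 FPKM added the neuron median was 1.27 and the tail bud median -0.99. The tail bud median was -1.36 at a mean of at least 5 FPKM, and that of the limb bud list -0.12 without genes of other lists. No scaling moved the mutant values by more than 0.043 on the log2 scale.

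No paired analysis was possible because the table holds 1 pooled value per genotype and none per embryo. The alternative of leaving out each embryo was not run, as no value per embryo was used. Summing several entries of a gene was not run, as each of the 8 genes had 1 entry.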

Other observations

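Within the hindbrain the genes split in a way that was noticed after their values were seen. *Egr2*, *Hoxb1* and *Fgf3* were past 1.5-fold lower in mutant embryos. *Epha4*, an ephrin receptor in the hindbrain list, stood nearer its wildtype level, at 12.8 FPKM in the mutant against 11.4 FPKM in the wildtype (log2 ratio 0.17).

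The FGF genes of the isthmus were all slightly lower, *Fgf8* (-0.25), *Fgf17* (-0.22) and *Fgf18* (-0.17), as was *Gbx2* (-0.40), while *Wnt1* was at 4.54 FPKM in mutants, with 4.22 FPKM in wildtypes (0.10). *Fgf8* and *Fgf17* are also expressed in the tail bud, whose other markers were lower in mutant embryos. The part of the tail bud in these values was not tested.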
